A study of Mus musculus with 3 samples.

Results

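Alveolar fibroblasts of the mouse lung were described in droplet RNA sequencing of dissociated cells and of isolated nuclei. A barcode was taken as an alveolar fibroblast when it held at least 1 transcript (unique molecular identifier, UMI) of at least 6 of the 10 genes Itga8, Col13a1, Tcf21, Adra1a, C7, Slit2, Robo2, Unc5c, Nox4 and Astn2. Members were thus chosen by measured UMIs of these genes, which are given below as a description only. This selected 2541 of 28589 barcodes. There were 821 of 11934 cells, 707 of 6849 nuclei in replicate 1 and 1013 of 9806 nuclei in replicate 2. All libraries came from wild type C57Bl/6J mice with no treatment named. The cells were freed from fresh lung with collagenase and DNAse and separated on a density gradient, whereas the nuclei were released from snap-frozen adult lung with a lysis buffer and filtered. Fresh or frozen tissue and the way of preparation therefore differed together and cannot be told apart, and there was only 1 cell library. The labels name neither animals nor their sex. Xist, the RNA of the inactive X chromosome, stood in the members at 313 CPM in the cells and at 1120 and 2.16 CPM in nucleus replicates 1 and 2 (CPM is a gene's counts over all counts of the class, scaled to a common total). The Y-linked Uty stood at 0.393, 1.81 and 236 CPM. These levels are those of female RNA in the cells and nucleus replicate 1 and of male RNA in nucleus replicate 2, and the other barcodes were split alike. The nucleus replicates thus came from different animals that also differed in sex. In the comparison of cells with nuclei, p-values rest on the spread between these 2 nucleus libraries. Comparisons between cell classes treat library as a block. Their p-values rest on how class differences vary between libraries over many genes, and only in part or not at all on the gene's own variation. In each fit edgeR pooled information on spread over genes.

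Alveolar fibroblasts lie in the walls of the alveoli, next to the epithelium that exchanges gas and makes surfactant. They are known for Tcf21, a transcription factor of lung mesenchyme, for integrin alpha 8 (Itga8) and for collagen XIII (Col13a1), and some of them store lipid and retinoid. They give signals such as Fgf10 and Wnt2 to the epithelium and deposit part of the elastic matrix. Adventitial fibroblasts surround the vessels and airways, and pericytes wrap the capillaries.

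The members held 2545629 counts in the cell library and 3316662 and 3235602 counts in nucleus replicates 1 and 2. Their median depth was 3049, 4892 and 3113 UMIs per barcode, in that order, against 2849, 4063 and 2425 in the other barcodes. A median of 1.71% of a cell's UMIs came from the mitochondrial genome, against 0.253% and 0.202% in the nuclei. Any 2 libraries had 21 to 24 barcode sequences in common, and nucleus replicates 1 and 2 shared 1 member's sequence.

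Many members of the cell library also held transcripts of other lineages. Of the 821 cells, 339 (41.3%) held at least 4 of 10 leukocyte markers and 354 (43.1%) held at least 4 of 10 endothelial markers. In the nuclei these were 4 and 59 of 707, and 11 and 85 of 1013. The summed level of the 10 leukocyte markers was 2193 CPM in the cells and 131 and 314 CPM in the nuclei, and none of the 10 was at 0. The nuclei held more transcripts of club cells, the secretory cells of the airway. The summed level of 10 club cell markers was 17154 and 15049 CPM in nucleus replicates 1 and 2 against 2288 CPM in the cells. At least 4 club cell markers were found in 673 of 707 and 850 of 1013 nuclei, and in 41 of 821 cells. Among other barcodes the shares were 91.5% and 78.3% of nuclei and 3.15% of cells. Of the other cells 69.9% held at least 4 leukocyte markers and 49.1% at least 4 endothelial markers. In the other nuclei these shares were 11.9% and 47.7% in replicate 1, and 9.97% and 26.5% in replicate 2. At least 4 of 10 markers of surfactant-making AT2 cells were found in 471 of 707 and 643 of 1013 member nuclei. The other nuclei had 76.7% and 74.3%. Members with such markers were kept by the rule. The counts of the gene lists in the cell and nucleus comparison are therefore also given without the barcodes that held 4 or more leukocyte or endothelial markers. The barcodes left out are called mixed below. This left 268 cells and 645 and 920 nuclei, and the setting was chosen after seeing the data. It removed no barcode for its club or AT2 cell markers.

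The members made up 6.88% of cells (exact binomial 95% interval 6.43 to 7.35). They made up 10.3% of nuclei in replicate 1 (9.61 to 11.1) and 10.3% in replicate 2 (9.73 to 10.9). The intervals cover counting error only, and the rule finds more members where a barcode is deeper. After each barcode was thinned to 1000 UMIs, which left out 8 nuclei of replicate 1, 253 of replicate 2 and no cell, the shares were 2.15%, 4.90% and 6.93%. The cell share was the lowest at either depth, with no test between preparations.

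**Figure D1:**
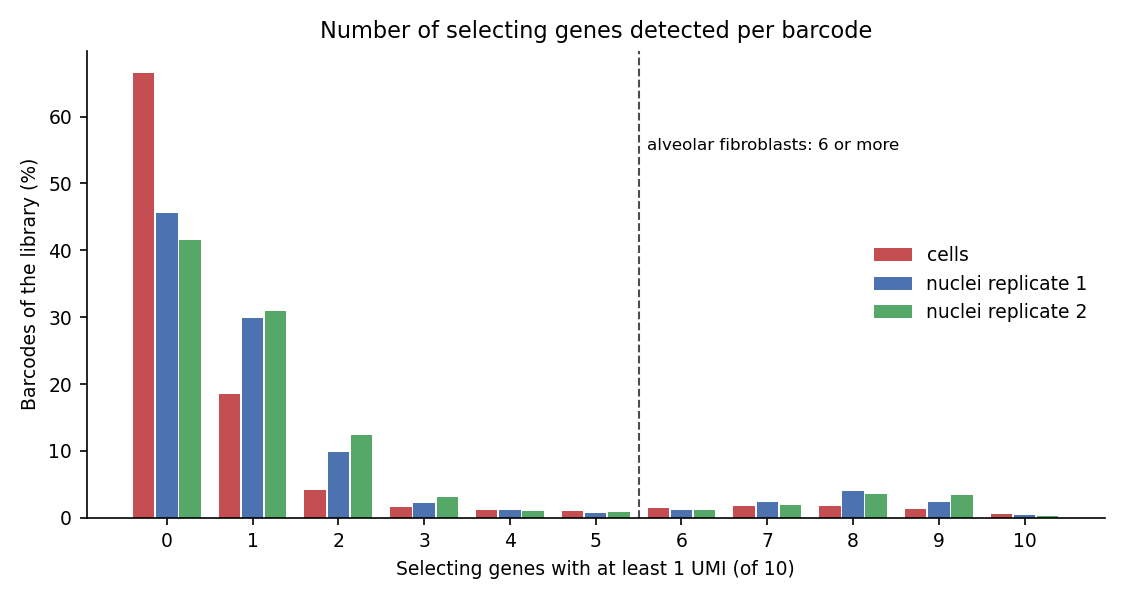
Share of all barcodes of a library (vertical axis, %) by the number of the 10 selecting genes with at least 1 UMI (horizontal axis), for cells (red), nucleus replicate 1 (blue) and nucleus replicate 2 (green). A second, smaller peak at 8 genes stands to the right of the dashed line that marks the rule of 6 genes.

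The selecting genes were unequal among themselves, and their values describe the choice. Itga8, an integrin subunit, was found in 92.4% of the member cells and in 95.6% and 96.7% of the member nuclei. It was found in 5.30% of 6023 leukocyte barcodes of the cell library, which should lack it, at a like median depth of 3008 UMIs. Nox4, an oxidase that makes hydrogen peroxide, stood at 902 CPM in the cells and at 3605 and 2342 CPM in the nuclei, without further scaling. C7, a complement component, stood at 797, 2507 and 3044 CPM. Both were lower in the cells than in either nucleus library. Tcf21 went the other way, with 165 CPM in the cells and 45.5 and 23.2 CPM in the nuclei, and was found in 36.4%, 16.7% and 6.71% of members. Col13a1 was found in 52.7%, 42.0% and 57.7% of members and did not separate cells from nuclei.

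Of the 25 listed alveolar fibroblast genes that played no part in the selection, 24 in the cells and 23 in each nucleus library were higher in barcodes with 6 selecting genes than in those with none. Rarb, a retinoic acid receptor, was lower in all 3 libraries, falling from 248 to 112 CPM in nucleus replicate 2, and Ces1d was lower in both nucleus libraries. Between 5 and 6 selecting genes, 24, 21 and 22 of the 25 were higher with 6, in cells and nucleus replicates 1 and 2. Fgf10, a growth factor for lung epithelium, stood in the cells at 4.83 CPM with 0 selecting genes, 120 CPM with 5, 154 CPM with 6 and 252 CPM with 9. Pdgfra, a receptor typical of fibroblasts, stood at 366, 438 and 306 CPM in barcodes with 5 selecting genes, just outside the rule, in cells and nucleus replicates 1 and 2. Just inside it, with 6 genes, Pdgfra stood at 446, 572 and 436 CPM. The border therefore cut through a slope in these libraries. Meox2, a homeobox factor, stood at 173, 222 and 349 CPM at 5 genes and at 230, 295 and 517 CPM at 6. Inmt, a methyltransferase abundant in lung mesenchyme, stood at 1132, 327 and 338 CPM at 5 genes and at 1424, 475 and 423 CPM at 6. Ces1d, a carboxylesterase, showed no such step, with 81.4, 122 and 111 CPM at 5 genes and 83.3, 116 and 122 CPM at 6. These values are a description, since a deeper barcode has more selecting genes by depth alone.

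**Figure D2:**
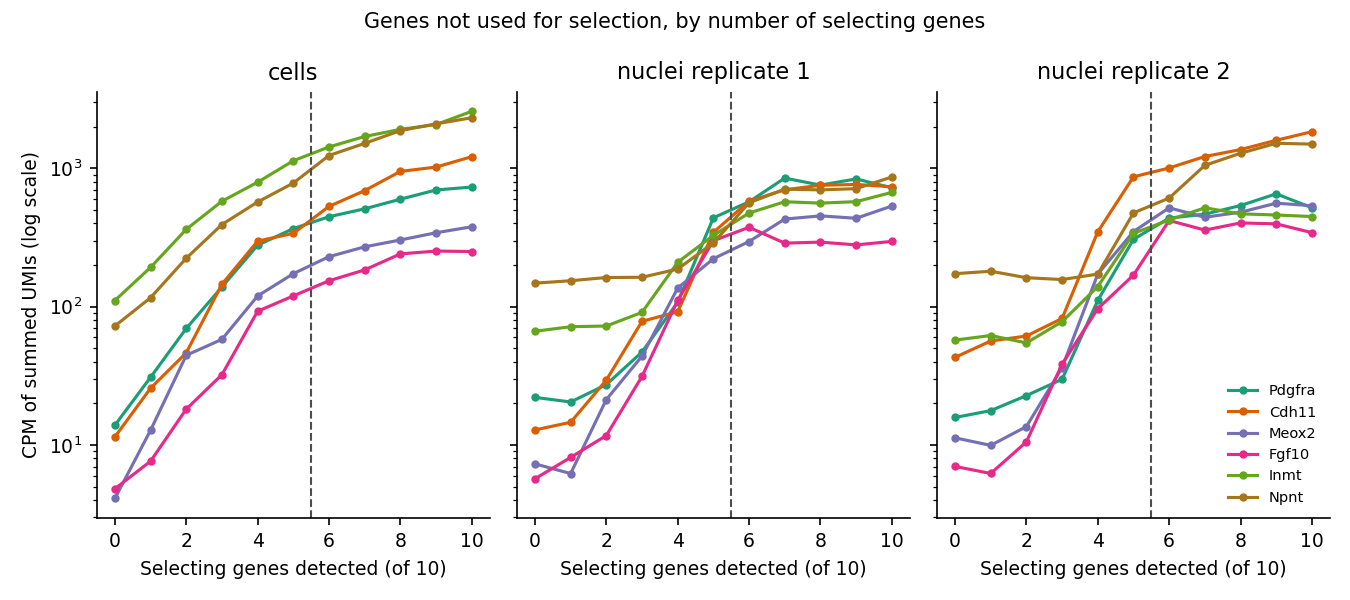
CPM of 6 genes outside the rule (logarithmic vertical axis), summed over all barcodes with a given number of selecting genes (horizontal axis), in a panel per library. Each of these 6 lines is higher at 6 genes, just inside the dashed line that marks the rule, than at 0 genes.

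Immediate early genes, the first to be transcribed after a stimulus and needing no new protein for it, were far higher in alveolar fibroblasts of the cell library. Of 40 tested, 35 rose in cells and none fell (edgeR's quasi-likelihood test, Benjamini-Hochberg adjusted p under 0.05). At an unadjusted p under 0.05, 35 were higher and 1, Fosl1, was lower, and DESeq2 called 33 of 38 higher and none lower. Over all genes, 2066 of 14735 tested were higher in cells (14.0%) and 709 were lower (4.81%). The list's median log2 fold of cells over nuclei was 3.76, against 0.01 over all genes. CPM values from here on are scaled by TMM (edgeR's trimmed mean of M-values) within each comparison. Fos, which forms the AP-1 factor with Jun proteins, stood at 1397 CPM in the cells against 4.86 and 5.40 CPM in the nuclei. Its log2 fold was 8.08 ± 0.46 (SE; adjusted p = 3.18e-05). Fosb, its close relative, stood at 842 CPM in the cells and at 0 and 0.601 CPM in the nuclei. With only 2 counts in the nuclei, the ratio of Fosb was 2701 (counting interval 747 to 22313). Both genes were low in each nucleus library and the cells stood far above them.

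Other members of the AP-1 and early response families moved with them. Junb stood at 1707 CPM in the cells against 13.9 and 19.5 CPM in the nuclei, a log2 fold of 6.67 ± 0.46. Jun stood at 993 against 37.3 and 30.6 CPM, a log2 fold of 4.87 ± 0.40. Egr1, a zinc finger factor, stood at 2460 against 7.78 and 13.5 CPM, a log2 fold of 7.84 ± 0.52. Atf3, a factor induced by stress, had 243 against 1.62 and 1.20 CPM, a log2 fold of 7.39 ± 0.45. Genes that restrain signalling rose too. Dusp1, a phosphatase of MAP kinases, stood at 1013 against 55.1 and 38.4 CPM, and Btg2, an antiproliferative gene, at 682 against 33.7 and 31.8 CPM. The orphan receptor Nr4a1 stood at 284 against 3.89 and 8.41 CPM. In all of these the cell library lay above both nucleus libraries. Per1, also a clock gene, did not pass, at 36.6 against 109 and 12.0 CPM, and Ccn2, Klf10, Myc and Fosl1 did not pass either. Ccn2, a matricellular gene, stood at 34.7 against 29.8 and 4.50 CPM, and Klf10 at 28.6 against 19.1 and 18.6 CPM.

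**Figure D3:**
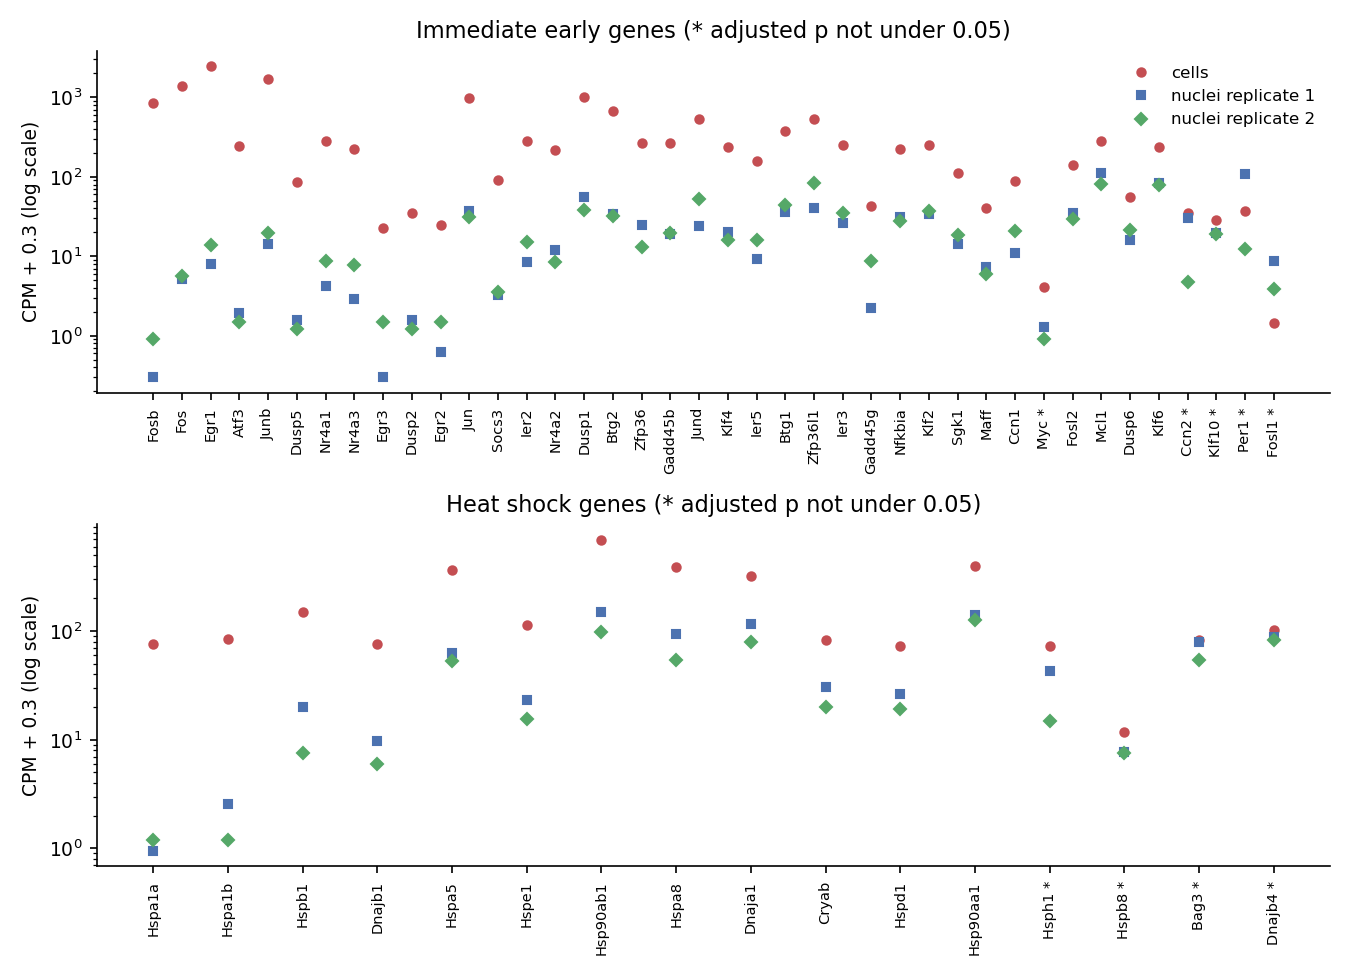
CPM plus 0.3 (logarithmic vertical axis) of every immediate early gene tested (upper panel) and every heat shock gene (lower panel) in alveolar fibroblasts of each library, ordered by fold. Red points (cells) lie above both nucleus points for all genes with no asterisk, and 5 immediate early genes and 4 heat shock genes with an asterisk did not pass the test.

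The immediate early genes were also counted with fewer leukocyte and endothelial transcripts. In the 268 cells and 645 and 920 nuclei, 33 of 39 immediate early genes tested rose, none fell, and the median log2 fold was 3.85. Over all genes this setting called 1031 higher and 145 lower, with 13800 genes fitted. Calls thus fell over all genes as well, which applies to every list count below without the mixed barcodes. Leukocyte markers were still higher in cells in this setting for 4 of 10, with a median of 2.04. In the 46 cells and 282 and 415 nuclei with at most 1 leukocyte and 1 endothelial marker, 27 of 35 rose, none fell, and the median was 3.81. Over all genes that setting called 423 higher and 44 lower, with 11360 genes fitted. No leukocyte marker of 8 tested passed there, with a median of 1.40. Since these markers chose the barcodes of both settings, their own values there describe the filter and test nothing. Both settings were chosen after seeing the data. Within the cell library, the 212 members with 0 or 1 leukocyte marker had 1570 CPM of Fos, without TMM scaling, the 270 with 2 or 3 had 1656 CPM and the 339 with 4 or more had 1226 CPM. Fosb stood at 891, 1057 and 726 CPM in the same order. Fos and Fosb were thus lowest where leukocyte markers were most numerous, but the list was divided. Of the 35 genes that rose in cells 16 were lowest with 4 or more leukocyte markers, 15 were highest there and 4 were neither. The ratio of the level with 4 or more to that with 0 or 1 ran from 0.543 to 3.63, with a median of 0.960. Btg1, a relative of Btg2, went from 273 to 288 and 516 CPM, and Dusp5, a MAP kinase phosphatase, from 51.3 to 65.6 and 126 CPM. The difference was not limited to alveolar fibroblasts. The other barcodes had 678 CPM of Fos in the cell library and 3.64 and 3.60 CPM in the nuclei.

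The promoters of the immediate early genes were examined because these genes moved together. RefSeq promoter windows of build GRCm38.p6, from 250 bases before to 50 bases after the start, were matched for 33 genes of the list. The core of the cAMP response element (TGACGT, or ACGTCA on the other strand, which overlap in the full element TGACGTCA) was found in 13 of their 45 windows (28.9%). It was found in 2468 of 32851 windows of all genes (7.51%). It belonged to 11 genes, among them Fos, Atf3, Btg2 and Dusp1, and these 4 are shown as examples of early response genes that rose in cells. Capitals mark the core.
Fos: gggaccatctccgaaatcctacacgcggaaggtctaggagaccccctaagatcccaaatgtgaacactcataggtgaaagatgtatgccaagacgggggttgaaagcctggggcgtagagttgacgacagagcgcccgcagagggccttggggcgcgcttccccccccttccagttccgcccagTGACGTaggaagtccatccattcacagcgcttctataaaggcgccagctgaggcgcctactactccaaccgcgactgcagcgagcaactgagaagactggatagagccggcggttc
Atf3: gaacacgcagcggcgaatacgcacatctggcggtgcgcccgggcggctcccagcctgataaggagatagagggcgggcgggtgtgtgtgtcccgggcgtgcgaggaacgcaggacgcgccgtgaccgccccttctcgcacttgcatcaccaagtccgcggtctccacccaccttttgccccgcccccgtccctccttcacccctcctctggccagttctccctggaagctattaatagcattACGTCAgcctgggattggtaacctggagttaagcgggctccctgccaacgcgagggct
Btg2: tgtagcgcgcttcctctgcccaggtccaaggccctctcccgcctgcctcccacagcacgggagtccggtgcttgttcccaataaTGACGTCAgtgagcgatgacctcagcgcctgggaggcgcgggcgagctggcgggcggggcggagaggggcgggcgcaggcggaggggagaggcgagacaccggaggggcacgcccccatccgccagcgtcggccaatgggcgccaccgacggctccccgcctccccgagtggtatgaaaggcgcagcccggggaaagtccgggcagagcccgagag
Dusp1: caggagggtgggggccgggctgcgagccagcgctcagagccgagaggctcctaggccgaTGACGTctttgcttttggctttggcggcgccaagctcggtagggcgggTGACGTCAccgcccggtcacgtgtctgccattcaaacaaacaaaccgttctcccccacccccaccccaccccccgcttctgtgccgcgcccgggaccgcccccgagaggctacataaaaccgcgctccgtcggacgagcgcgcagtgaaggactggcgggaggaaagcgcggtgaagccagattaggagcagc
The Fos window is chr12:85473640-85473939 on the + strand, and its core begins 66 bases before the start. The Atf3 window is chr1:191183284-191183583 on the - strand, with the core 8 bases before the start. The Btg2 window is chr1:134079106-134079405 on the - strand and the Dusp1 window is chr17:26508423-26508722 on the - strand. Both hold the full element, and Dusp1 holds a further core 191 bases before the start. The AP-1 site (TGANTCA, the same motif on either strand) was found in 1 of the 45 windows (2.22%) against 7.81% of all windows. The serum response element was found in 6 (13.3%) against 1.63%. These 6 windows belonged to only 3 of the 33 genes, Dusp5, Egr2 and Zfp36. Several windows can belong to 1 gene, and these matches describe letters, not binding.

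Heat shock genes, whose products refold damaged proteins, were higher in cells for 12 of 16, with none lower and a median log2 fold of 2.06. This was 11 of 16 without the mixed barcodes. Hspa1a, the inducible HSP70, stood at 75.4 CPM in the cells and at 0.648 and 0.901 CPM in the nuclei, a log2 fold of 6.52 ± 0.51. Dnajb1, its co-chaperone, stood at 76.2 against 9.40 and 5.70 CPM. The constitutive Hsp90aa1 changed less, with a log2 fold of 1.56 ± 0.35. Hsph1, at 72.4 against 42.5 and 14.7 CPM, did not pass.

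Among cytokines, chemokines and related genes, 7 of 13 tested were higher in cells and none was lower, with a median log2 fold of 1.73. Without the mixed barcodes 4 of 12 passed, and 1 of 7 with at most 1 leukocyte and 1 endothelial marker. Icam1, an adhesion molecule, stood at 333 CPM against 18.5 and 40.8 CPM, a log2 fold of 3.49 ± 0.45. This fold was 3.80 without the mixed barcodes. Il6 had 42.3 CPM in the cells and 3 counts in the nuclei, a ratio of 90.4 (counting interval 30.1 to 445). Cxcl1, a neutrophil chemokine, had 16.0 CPM in the cells and no count in the nuclei, so it was at least 34.2-fold higher against a floor of 3 counts over both nucleus libraries.

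For other inflammatory genes the level moved with leukocyte markers. Il1b, a cytokine typical of myeloid cells, stood at 196 CPM against 0.648 and 2.70 CPM, a log2 fold of 6.81 ± 0.54. Without the mixed barcodes it was 3.46 (adjusted p = 0.128) and no longer passed. Within the cell library Il1b had 11.6 CPM in members with 0 or 1 leukocyte marker, 20.2 CPM with 2 or 3 and 428 CPM with 4 or more. Cxcl2, another neutrophil chemokine, went from 11.6 to 29.0 and 194 CPM. Its ratio over the whole class, with 1 nuclear count, was 616 (counting interval 110 to 24421). The part that leukocyte transcripts had in these 2 results was not tested. All 10 leukocyte markers were themselves higher in cells, with a median log2 fold of 3.16, and 7 of 10 endothelial markers were, with 1.73.

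**Figure D4:**
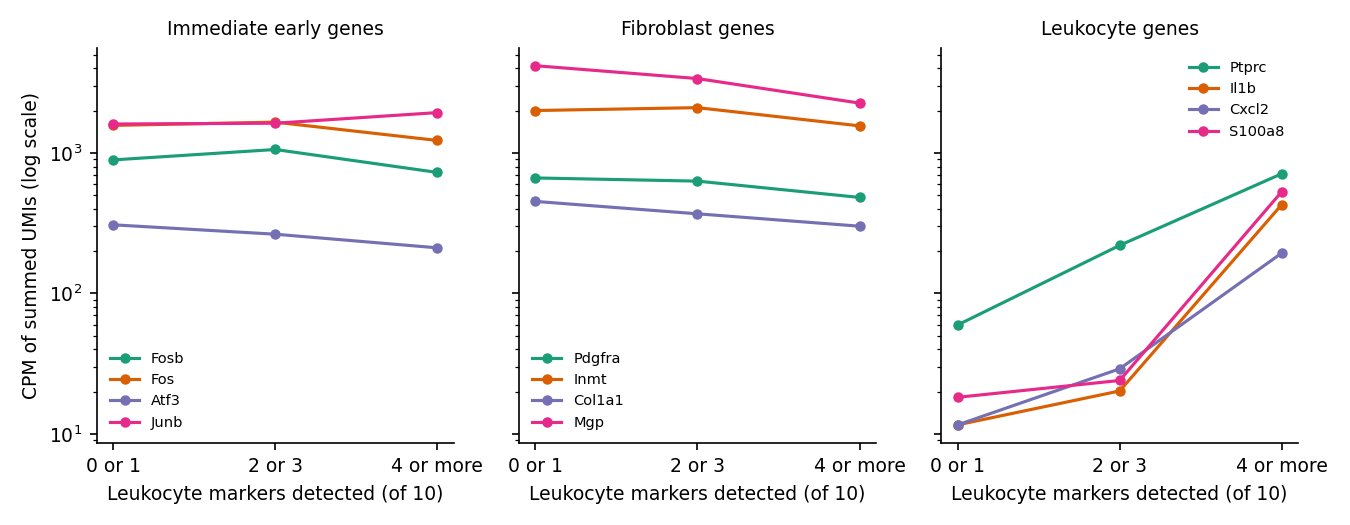
CPM (logarithmic vertical axis) in member cells with 0 or 1, 2 or 3, and 4 or more of 10 leukocyte markers, for 4 genes each of the immediate early list, of fibroblasts and of leukocytes, chosen after their values were seen. Il1b, Cxcl2, Ptprc and S100a8 climb to the right, Junb rises slightly, and Fos, Fosb, Atf3 and the 4 fibroblast genes are lowest at 4 or more markers, whereas 15 of the 35 early genes that rose in cells are highest there.

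Iqcn, Pde4c and Bmp8a stood among the 10 genes with the largest increase in cells and are not on the early response list. Pde4c, a cAMP phosphodiesterase, stood at 264 CPM against 0.973 and 1.20 CPM, and Iqcn at 390 against 1.95 and 1.5 CPM. Iqcn begins 2841 bases downstream of Jund on the same strand of chromosome 8 (mm10). The next gene on that strand is Gm3336, which also rose (log2 fold 6.40), and Pde4c begins 1086 bases downstream of it. Jund, an AP-1 subunit, stood at 528 against 24.0 and 51.9 CPM. Bmp8a, a ligand of the BMP family, stood at 162 against 0.973 and 1.80 CPM, a log2 fold of 6.82 ± 0.46. It begins 6381 bases downstream of Macf1, a cytoskeletal linker of alveolar fibroblasts, on the same strand of chromosome 4. Macf1 itself did not pass, at 4542 against 6475 and 8749 CPM. In unscaled counts Bmp8a had 167 CPM in the member cells and 9.67 CPM in the other cells. Whether reads of a neighbouring gene were counted for these genes was not tested.

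Matrix genes were higher in cells in part of the list. Of 39 elastic fibre and other matrix genes 12 rose and none fell, with a median log2 fold of 0.74, and 11 of 38 rose without the mixed barcodes. The small proteoglycan genes Prelp and Ogn stood at 408 and 752 CPM in the cells. In the nuclei Prelp stood at 28.5 and 27.0 CPM and Ogn at 72.6 and 46.2 CPM. Their log2 folds were 3.87 ± 0.36 and 3.66 ± 0.40. Mgp, an inhibitor of calcification, stood at 2972 against 261 and 299 CPM. All were higher without the mixed barcodes as well, where the log2 fold of Mgp was 3.78. Eln, the gene of elastin, did not pass, with 598 CPM in the cells and 83.3 and 612 CPM in the nuclei, so the nuclei differed more from each other than nucleus replicate 2 did from the cells. Of 21 collagens 3 rose, a share near the 14.0% of all genes, and none fell, with a median log2 fold of 0.37. This was 3 of 20 without the mixed barcodes. Col1a1 stood at 347 CPM against 25.9 and 83.5 CPM, a log2 fold of 2.66 ± 0.54, and Col1a2 and Col6a1 were the others. Col3a1, at 453 against 124 and 380 CPM, did not pass.

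Lipid and retinoid genes changed in few members, with 5 of 28 higher, near the share of all genes, 1 lower and a median log2 fold of 0.43. Without the mixed barcodes 3 of 27 were higher and none was lower. G0s2, an inhibitor of fat breakdown, stood at 186 CPM against 20.4 and 17.4 CPM. Lrat, which esterifies retinol for storage, stood at 252 against 7.46 and 71.5 CPM, a log2 fold of 2.67 ± 0.81, and did not pass without the mixed barcodes (adjusted p = 0.0838). Plin2, which coats lipid droplets, did not pass, at 91.4 against 67.4 and 73.3 CPM.

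Signals to neighbouring cells went both ways, with 8 of 38 secreted growth factors higher in cells, 3 lower and a median log2 fold of 0.23. Over all genes 14.0% were higher and 4.81% lower. Without the mixed barcodes 9 of 37 were higher and 1 was lower. Cxcl14, a chemokine, stood at 156 CPM against 10.7 and 18.3 CPM, and Tgfb1, a regulator of matrix production, at 122 against 17.8 and 12.9 CPM. Fgf2 fell, with 64.4 CPM against 198 and 152 CPM, a log2 fold of -1.44 ± 0.40. Fgf10 did not pass, with 204 CPM against 318 and 381 CPM, nor did Wnt2, with 68.2 against 42.5 and 102 CPM. Of 41 receptors 3 were higher and 1 lower, both shares below those of all genes, with a median of -0.20. Without the mixed barcodes 1 of 40 was higher and none lower. The test recovered 18% of 2-fold changes on simulated counts, so few calls do not show that receptors were unchanged. Pdgfra, at 554 against 834 and 543 CPM, overlapped between the preparations. The Wnt receptor Fzd1 rose, with 41.1 against 6.81 and 6.91 CPM. Thrb, a thyroid hormone receptor, was lower, at 122 against 540 and 311 CPM, but did not pass without the mixed barcodes (adjusted p = 0.109).

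Of 32 mesenchymal transcription factors 4 rose and 2 fell, shares near the 14.0% and 4.81% of all genes, with a median log2 fold of -0.37. Without the mixed barcodes 1 rose and none fell, in a setting where calls over all genes also dropped to 1031 higher and 145 lower. Foxf2, a forkhead factor, stood at 47.6 CPM against 14.3 and 8.41 CPM, a log2 fold of 2.07 ± 0.44. Ebf1 stood at 257 against 49.6 and 95.2 CPM, a log2 fold of 1.83 ± 0.42, but this was -0.24 in the barcodes with at most 1 leukocyte and 1 endothelial marker. Gli2, a transducer of hedgehog signals, fell, at 64.0 against 221 and 138 CPM, and did not pass without the mixed barcodes (adjusted p = 0.171). Axon guidance genes, which supplied 3 of the selecting genes, had 2 of 29 higher and 1 lower and a median of -0.07, and 1 higher and none lower without the mixed barcodes. Of 17 contractile genes 4 rose, led by Actb at 3189 against 383 and 538 CPM, and none fell, with 3 of 17 higher without the mixed barcodes. At an unadjusted p under 0.05, no heat shock or contractile gene, 1 cytokine gene, 1 collagen and 2 other matrix genes were lower in cells, and DESeq2 called no gene of these 5 lists lower. Of the 25 alveolar fibroblast genes outside the rule 4 were higher in cells (Cxcl14, G0s2, Mfap4 and Inmt), 1 was lower (Slc27a6), and the median was -0.42. Without the mixed barcodes 4 were higher and none was lower. Scn7a, a sodium channel gene of this list, stood at 402, 377 and 392 CPM and did not separate the preparations.

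The 10 genes with the largest decrease in cells were, in order, Cyp2f2, Dpp10, Hif3a, Zfp568, Grip1, Cbr2, Scgb1a1, Scgb3a1, Thsd7a and Snhg11. Of these Cyp2f2, Cbr2, Scgb1a1 and Scgb3a1 are genes of club cells. Scgb1a1, the secretoglobin of club cells, stood at 1346 CPM in the cells and at 14055 and 12307 CPM in the nuclei, a log2 fold of -3.29 ± 0.68. All 10 genes were also lower in the cells than in either nucleus library among the other barcodes. The direction was thus not limited to alveolar fibroblasts. In those barcodes, without TMM scaling, Scgb1a1 stood at 1420 CPM in the cells and at 15619 and 16193 CPM in the nuclei. Grip1 stood at 30.4 against 266 and 786 CPM, whereas Dpp10 stood at 6.44 against 6.67 and 13.3 CPM. Of 10 club cell markers 8 fell, and of 10 ciliated cell markers 7 fell. Of 8 mesothelial markers 3 fell, of 10 markers of surfactant-making AT2 cells 1 fell, and of 10 markers of flat AT1 cells none fell (2 at an unadjusted p under 0.05, none by DESeq2). The part that club and ciliated cell transcripts had in the decreases was not tested. Hif3a, a hypoxia-inducible factor, stood at 2.67 against 77.2 and 23.7 CPM, and Thsd7a, a thrombospondin family gene, at 8.0 against 59.0 and 58.2 CPM. Genes lower in cells had a median span of 53.9 kb in the genome, those higher in cells 11.2 kb and all tested genes 26.7 kb. Whether span accounts for the calls was not tested.

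Adventitial fibroblasts were taken as barcodes outside the class with at least 4 of 10 adventitial markers (such as Pi16, Dpt and Ebf2) and more of these than of the selecting genes. There were 168 cells, 25 and 28 nuclei, with 110169 and 94834 counts in the nuclei, so low genes rest on few counts. With library as a block, 601 of 11579 genes were higher in alveolar fibroblasts (5.19%) and 481 were lower (4.15%). Genes that chose either class were left out. In this fit edgeR pooled spread fully over genes. A gene's own variation between the libraries therefore had no weight in its SE or p-value. Of the 25 alveolar fibroblast genes outside the rule 18 were higher and none was lower (22 and 0 at an unadjusted p under 0.05, 16 and 0 by DESeq2), with a median log2 fold of 1.77 against 0.09 over all genes. Npnt, the ligand of integrin alpha 8, stood at 1848, 798 and 1334 CPM in alveolar fibroblasts of cells and nucleus replicates 1 and 2, against 85.8, 58.9 and 37.4 CPM in adventitial fibroblasts. Its log2 fold was 4.42 ± 0.28. Meox2, at 314, 494 and 532 against 264, 337 and 421 CPM, did not pass.

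The 10 genes with the largest excess over adventitial fibroblasts included Scube2, Gria1 and Nebl. Scube2, a secreted protein of hedgehog release, stood at 253, 489 and 376 CPM against 4.18, 8.42 and 0 CPM. With 3 adventitial counts its ratio was 89.2 (counting interval 30.5 to 433). Gria1, a glutamate receptor subunit, stood at 171, 811 and 394 CPM against 8.37, 0 and 0 CPM. The lowest alveolar value of each lay above the highest adventitial value. On the other side Lsamp, a cell adhesion gene, stood at 22.0, 19.0 and 23.2 CPM against 749, 1743 and 1554 CPM, a log2 fold of -5.89 ± 0.25. Gpc6, a glypican, stood at 58.3, 69.7 and 62.6 against 2048, 3334 and 3276 CPM.

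The classes differed in which matrix genes they held. Of 37 matrix genes 7 were higher in alveolar fibroblasts and 12 were lower, with a median of -0.16. Dcn, the proteoglycan decorin, stood at 201, 34.8 and 58.1 CPM against 6060, 631 and 880 CPM, a log2 fold of -4.38 ± 0.24. Tnc, tenascin C, had no adventitial count and was at least 5.33-fold higher against a floor of 3 counts over the class. Of 19 collagens 4 were higher, led by Col23a1 (log2 fold 2.05 ± 0.29), and 5 were lower, among them Col3a1 (-1.39 ± 0.21) and Col1a2 (-1.32 ± 0.21).

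Signals and their receptors also split. Of 35 growth factors 9 were higher and 11 lower, with a median of 0.20. Wnt2, a lung mesenchymal Wnt, stood at 75.7, 45.2 and 110 CPM against 8.37, 0 and 0 CPM, and Bmp5 at 178, 406 and 467 against 16.7, 42.1 and 65.5 CPM. Il33, an alarmin, was lower, at 13.1, 23.1 and 28.7 against 174, 101 and 178 CPM. Of 40 receptors 7 were higher and 9 lower, with Fgfr4 at 103, 150 and 149 CPM against 10.5, 8.42 and 0 CPM. Of 31 transcription factors 3 were higher, all of the T-box family (Tbx2, Tbx4 and Tbx5), and 6 were lower. Tbx5 did not pass without the mixed barcodes (adjusted p = 0.0851). Tbx4, a factor of lung mesenchyme, stood at 212, 338 and 210 CPM against 35.6, 16.8 and 56.2 CPM. Ebf1 stood at 285, 52.8 and 102 CPM against 1188, 3806 and 2518 CPM, a log2 fold of -4.29 ± 0.25. Of 29 axon guidance genes 7 were higher and 7 lower. Slit3, a relative of the selecting gene Slit2, was among the lower ones, with a log2 fold of -1.10 ± 0.21. Of 31 immediate early genes that could be tested 2 were higher and 2 lower, with a median of 0.13. These shares were near the 5.19% and 4.15% of all genes. On simulated counts the test against adventitial fibroblasts recovered 48% of 2-fold changes, so smaller differences can be missed. Fos, Fosb, Fosl1, Egr2, Atf3, Dusp2, Dusp5, Myc, Socs3 and Arc were not tested here, so nothing is said of them.

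Pericytes were taken in the same way from 10 markers such as Cspg4, Notch3 and Higd1b, and the comparison uses the same alveolar libraries as the one with adventitial fibroblasts. There were 470 cells, 290 and 180 nuclei, and 385 of the 470 cells held at least 4 endothelial markers. In this comparison 929 of 12104 genes were higher in alveolar fibroblasts (7.68%) and 822 were lower (6.79%). The counts depended on the libraries, falling to 592 higher and 516 lower genes when nucleus replicate 1 was left out. Leaving out nucleus replicate 2 gave 368 and 214. Endothelial markers were lower in alveolar fibroblasts for 9 of 10, with a median log2 fold of -1.16, and their part in the other differences was not tested.

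Of the 25 alveolar fibroblast genes outside the rule 20 were higher than in pericytes, 2 were lower, and the median log2 fold was 3.33 against -0.01 over all genes. Fgf10 stood at 203, 313 and 388 CPM against 8.11, 5.68 and 4.50 CPM, a log2 fold of 5.37 ± 0.32. Pdgfra stood at 552, 820 and 553 CPM against 43.9, 16.1 and 22.5 CPM, a log2 fold of 4.55 ± 0.38. The classes were far apart in all libraries for both genes. The 2 exceptions were Tbx5, with a log2 fold of -1.83 ± 0.25, and Rarb, with -0.87 ± 0.23. Among the 10 largest, Slc36a2, an amino acid transporter, stood at 136, 240 and 207 CPM against 2.70, 4.74 and 2.25 CPM.

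Contractile genes were lower in alveolar fibroblasts for 9 of 16 and higher for 2, with a median of -1.43. Myh11, a smooth muscle myosin, stood at 15.9, 11.5 and 4.89 CPM against 155, 433 and 274 CPM, whereas the 2 higher genes were Myh10 and the kinase Mylk. Mylk stood at 1045, 1421 and 1905 CPM against 339, 653 and 317 CPM. Agtr1a, the angiotensin receptor, stood at 7.97, 2.23 and 2.14 against 103, 586 and 241 CPM, a log2 fold of -6.00 ± 0.70. Of 20 collagens 12 were higher and 4 lower, with a median of 1.20. Col6a3 was higher (log2 fold 3.03 ± 0.23). The listed type IV collagens, which belong to basement membranes, were split. Col4a1 (-1.65 ± 0.18) and Col4a2 (-2.09 ± 0.21) were lower, whereas Col4a5 and Col4a6 were higher. Of 36 other matrix genes 13 were higher and 4 lower. Of 31 transcription factors 10 were higher, led by Meox2 (5.04 ± 0.44) and Gli2 (4.42 ± 0.30), and 6 were lower, among them Ebf1 (-4.70 ± 0.77). Lipid and retinoid genes were higher for 8 of 27 and lower for 1. Lrat stood at 251, 7.33 and 72.8 CPM against 51.4, 4.74 and 11.2 CPM, and Plin2 did not pass.

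**Figure D5:**
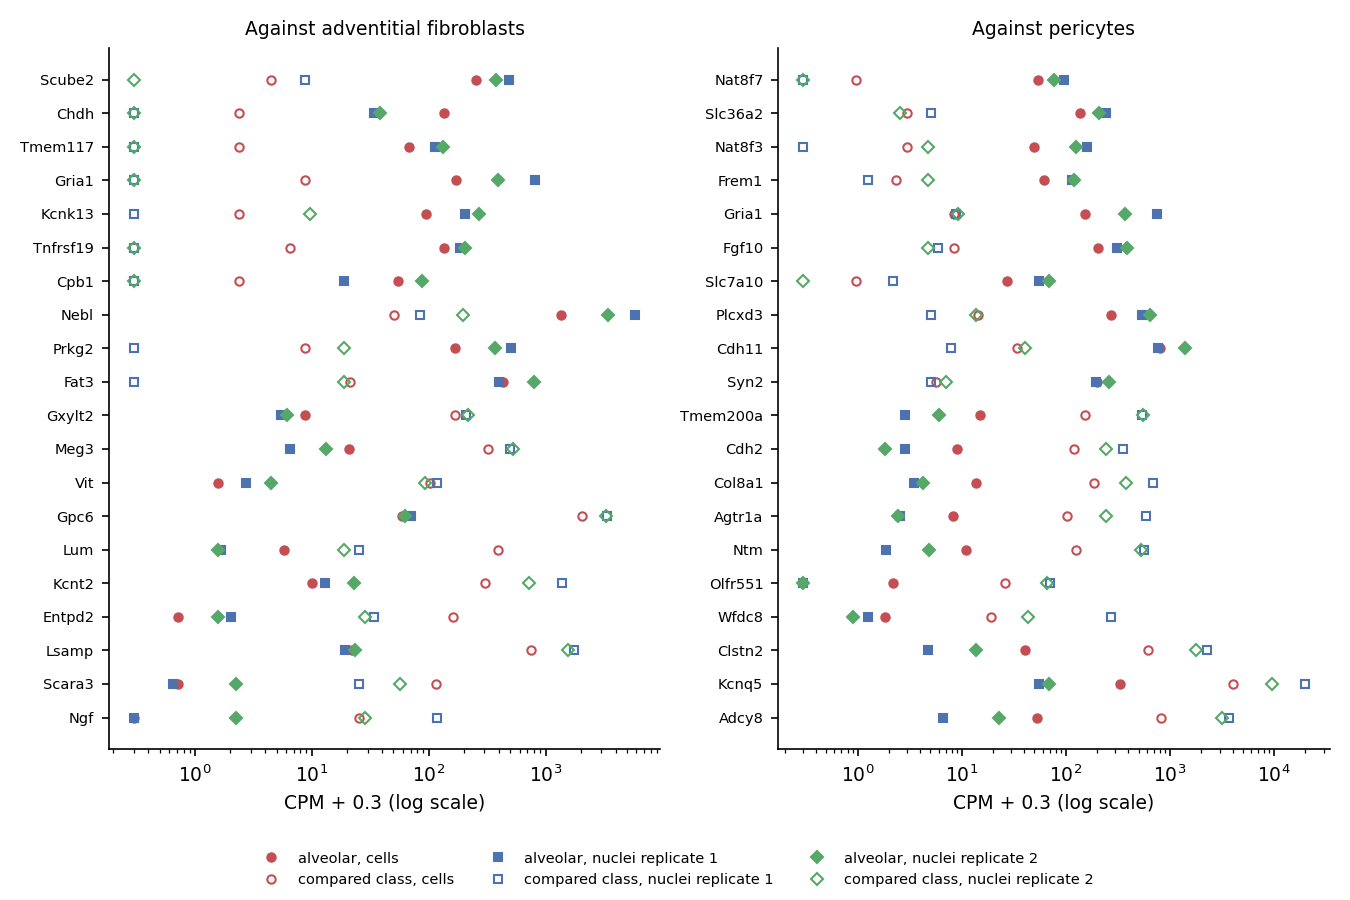
CPM plus 0.3 (logarithmic horizontal axis) in alveolar fibroblasts (filled symbols) and in the compared class (open symbols), by library (colour and shape), for the 10 genes with the largest excess and the 10 with the largest deficit against adventitial fibroblasts (left) and pericytes (right). In each library the filled symbol lies to the right of the open one for the upper 10 genes and to its left for the lower 10, and the deficit genes of the right panel have their highest alveolar value in the cells.

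The difference between cells and nuclei was itself compared between alveolar fibroblasts and pericytes. The cell over nucleus ratio was higher in alveolar fibroblasts for 63 of 14386 genes (0.438%) and lower for 27 (0.188%). Of 39 immediate early genes tested, Dusp5 alone passed, with a difference of log2 folds of 3.53 ± 0.62. It did not pass without the mixed barcodes (2.60, adjusted p = 0.380), and DESeq2, which gave it no adjusted p, called none of 28. At an unadjusted p under 0.05, 5 were higher and 2 lower. On simulated counts this test recovered 4% of 2-fold and 46% of 4-fold changes among 13788 genes. Fos, at 611 CPM in pericyte cells and 2.90 and 4.35 CPM in pericyte nuclei, had a difference of 0.62 ± 0.70 (adjusted p = 0.902), an error that allows differences of either sign. Mgp, Dcn and Ogn, all matrix genes, had a larger ratio in alveolar fibroblasts. Mgp stood at 2959 against 261 and 301 CPM there, and at 327 against 205 and 200 CPM in pericytes. Its difference was 2.71 ± 0.38. Those of Dcn and Ogn were 3.09 ± 0.43 and 1.89 ± 0.39. Kcnq5, a potassium channel gene, went opposite ways, with 330 CPM in alveolar fibroblast cells against 56.3 and 68.6 CPM in their nuclei, and 3855 against 20100 and 9276 CPM in pericytes. Leaving out the barcodes with 4 or more leukocyte or endothelial markers left 26 pericyte cells, and 18 of the 90 genes passed with that setting.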

How the data were processed

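Droplet RNA sequencing (10x Chromium 3′ version 3) of 1 cell and 2 nucleus libraries was analysed. The deposited tables hold the authors' raw counts of transcripts per gene and barcode. STAR 2.5.3a and the mm10 build are named in the submitters' processing notes. How reads were counted, with regard to strand and introns, is not given in the sources used here. The largest number of genes per barcode was 2499, 2499 and 2999 in the deposited tables, so barcodes with more genes were not analysed here. No doublet caller was run.

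The 21507 genes common to both tables were used, and Foxf1, Hoxa4, Hoxa5, Twist1, Crabp1 and Csf3 were not analysed here. Members and gene lists were chosen with earlier results of these data known. Counts were summed per library and class and tested with edgeR 4.0.16 (quasi-likelihood, TMM, filterByExpr), adjusted by Benjamini-Hochberg over all genes tested, with R 4.3.3. The cell and nucleus fits had 1 residual degree of freedom and assumed that the cell library varies like the nuclei. SE is the log2 fold over the root of F. On simulated counts the cell and nucleus test recovered 18% of 2-fold and 86% of 4-fold changes among 14202 genes, with 6 false calls. All simulated libraries shared the same mean profile, and every gene had the same dispersion. The real nucleus replicates differ in sex and animal, so the simulated recoveries and false calls of all comparisons need not hold for them. DESeq2 1.42.0 was an alternative, with other thresholds, filters and scalings and each library left out.

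Named genes were the 10 largest by log2 fold per direction with at least 50 CPM, 2-fold and adjusted p under 0.05, in the same direction in all libraries. For the difference of differences they were the 5 largest per direction with adjusted p under 0.05, with no limit on level, fold or direction by library. Selecting, ribosomal protein, mitochondrial and clone-like genes were left out. List members with large or absent changes were named as well. Some list members were named after their values were seen. Counts of 1 to 3 give a ratio with a 95% counting interval, and intervals cover counting error only. Gene positions are from GENCODE, promoters from RefSeq.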

Additional observations from a re-analysis of the deposited data

Results flagged for a closer look

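The cell over nucleus fold differed between alveolar fibroblasts and pericytes for the genes below, by edgeR's test of the difference itself with adjusted p under 0.05. Values are differences of log2 folds, alveolar fibroblasts minus pericytes. Among the largest positive ones, Lef1, a Wnt effector, had 4.49, and Kcnq5, Adcy8, Clstn2 and Ntm had 4.23, 4.12, 3.99 and 3.94. Other genes that were lower in alveolar fibroblasts than in pericytes were also positive: Agtr1a had 3.85, Ebf1 3.48, Cdh2 3.44, Col8a1 3.41 and Myh11 2.25. Their alveolar level was highest in the cell library, whereas their pericyte level was highest in the nuclei. The early response gene Dusp5 had 3.53. Of the matrix genes, Dcn had 3.09, Mgp 2.71 and Ogn 1.89. The negative differences were those of Ighg2c, an immunoglobulin gene (-5.52), Cdkl4 (-4.91), Abcb1b (-3.85), Prkg2 (-3.40), Colgalt2 (-2.95) and Spon1 (-2.25). In the cell library 385 of 470 pericytes and 354 of 821 alveolar fibroblasts held at least 4 endothelial markers. Of 10 pericyte markers 5 were higher in alveolar fibroblast cells than in their nuclei, with a median log2 fold of 1.94, and at least 4 were held by 53 of 821 cells and by 3 of 707 and 2 of 1013 nuclei. The part of either marker list in these differences was not tested.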

How the results depend on the processing

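Of 2066 genes higher and 709 lower in cells, DESeq2 called 949 and 309. Without barcodes with 4 or more leukocyte or endothelial markers there were 1031 and 145 calls, and with at most 1 of each 423 and 44, in fewer barcodes. Of the 1176 calls in the first of these settings 1148 were shared with the full set, none in the opposite direction. A rule of 5 or 7 of 10 genes gave 429 and 344 lower genes. Against adventitial fibroblasts DESeq2 called 284 higher and 309 lower, and leaving out each library gave 425 to 459 higher and 303 (without the cells) to 405 lower. Against pericytes there were 1627 higher genes with no filter, and 368 to 1325 higher and 214 to 1132 lower with each library left out. For the difference of differences (63 and 27) DESeq2 gave 18 and 3, the rule of 5 genes 185 and 150, that of 7 genes 211 and 133, no filter 222 and 127, DESeq2's size factors 187 and 116, and the set without mixed barcodes 23 and 6. The last also reversed Ighg2c (7.18), Abcb1b (3.93), Prkg2 (3.48) and Colgalt2 (5.72), none of which passed there, and at most 1 marker of each reversed Ebf1 between cells and nuclei (-0.24). The cause was not tested. The share of members in cells, nucleus replicate 1 and nucleus replicate 2 was 2.15%, 4.90% and 6.93% after thinning. Thinned with 5 genes it was 3.62%, 7.69% and 9.15%. Unthinned it was 7.96%, 11.02% and 11.1% with 5 genes and 5.37%, 9.18% and 9.15% with 7. Without mixed barcodes it was 2.25%, 9.42% and 9.38%. Requiring under 2 markers of every other lineage left 0.0335%, 0 and 0, too few for a fit. The stricter adventitial class was not run. Leaving out a library of the cell and nucleus fit leaves no residual degree of freedom, so it gives values with no test. No paired analysis was possible because the cells have no replicate number that the nuclei share as a pair. The settings on mixed barcodes and thinning with 5 genes were chosen after seeing the data.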

Other observations

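Alveolar fibroblasts of the nucleus replicates, which also differ in sex by Xist and Uty, differed from each other in a number of clock genes. These genes were chosen after their values were seen and are no tested theme. Of 14 clock genes 9 were over 2-fold higher in nucleus replicate 1 and 2 in nucleus replicate 2, on log2(unscaled CPM + 1). Values are TMM-scaled CPM, first in cells and then in nucleus replicates 1 and 2. The clock output factors Tef and Hlf stood at 36.2, 414 and 94.0 CPM and at 37.0, 265 and 41.1 CPM. The repressor Per2 stood at 10.7, 159 and 15.9 CPM. The activators Arntl and Npas2 went the other way, at 128, 12.0 and 171 CPM and at 60.2, 2.59 and 94.3 CPM. Fkbp5 and Zbtb16, known targets of the glucocorticoid receptor, stood at 40.0, 567 and 46.8 CPM and at 139, 3785 and 213 CPM. Clock hardly differed, at 124, 133 and 168 CPM. Tsc22d3, another target of that receptor, stood at 150, 168 and 29.7 CPM. The cell library lay nearer to nucleus replicate 2 in 11 of the 14 clock genes and nearer to replicate 1 in Clock, Cry1, Per1 and Tsc22d3. The other barcodes, without TMM scaling, had 1676 and 100 CPM of Zbtb16 in nucleus replicates 1 and 2 and 33.7 and 155 CPM of Arntl, so these were not limited to alveolar fibroblasts. Since both replicates form the nucleus group, a gene of this kind has a wide error in the comparison with cells, and Per2, Fkbp5 and Zbtb16 did not pass it (edgeR adjusted p = 0.0763, 0.0902 and 0.0694).

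Dgkg, a diacylglycerol kinase gene, and Rtn2, a reticulon gene, also chosen after their values were seen, were higher in alveolar fibroblast cells than in nuclei. Dgkg stood at 734 CPM against 6.16 and 12.0 CPM, and Rtn2 at 181 against 2.92 and 1.5 CPM. The other barcodes, without TMM scaling, had 711 CPM of Dgkg in the cells and 37.9 and 52.5 CPM in the nuclei. They had 71.9 CPM of Rtn2 against 1.17 and 1.38 CPM, so neither difference was limited to alveolar fibroblasts.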
